A study of Mus musculus with 466 samples.

Results

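The 6 genes described are Srebf1, Mlxipl and Nr1h3, which encode transcription factors of fat synthesis, and Pnpla3, Rgs16 and Txnip, genes known to respond to them. They were taken by gene symbol from 16643 genes with a symbol on the array, and each was read by 1 probe set. RNA levels were measured in liver and 4 adipose depots of obese male C57BL/6J mice killed after 0, 1, 3, 7, 14, 21, 42 or 60 days of caloric restriction. All groups share the strain, the sex and the obese state before restriction. The labels give no genotype other than the strain, no age and no diet composition. Liver was measured in 12, 5, 11, 12, 10, 12, 12 and 6 mice on these days in turn, and the depots in 5 to 12 mice a day. The series text lists days up to 42, and its title and labels also hold day 60. The ID of each mouse starts with J or N, letters that the labels do not explain, except 1 mouse of day 3. All day 1 mice carry a J and all day 60 mice an N. No unrestricted mouse was killed after day 0, so restriction and the passage of time cannot be told apart.

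Srebf1 encodes SREBP-1, a membrane-held factor that is cut and released to switch on genes of fatty acid synthesis, and insulin raises its activity in liver and fat. Mlxipl encodes ChREBP, which binds DNA as a pair with Mlx and turns on glycolytic and lipogenic genes when glucose is plentiful. Nr1h3 encodes LXR alpha, a nuclear receptor for oxysterols that pairs with retinoid X receptors and is a known activator of Srebf1. Pnpla3 encodes a lipid droplet protein induced by SREBP-1 and ChREBP. Rgs16 encodes a regulator that shortens G protein signalling and, in mouse liver, responds to glucose through ChREBP and follows a daily rhythm. Txnip encodes an arrestin-like protein that binds thioredoxin, restrains glucose uptake and is induced through glucose response elements.

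The promoters of Mlxipl, Txnip, Rgs16 and Pnpla3 are shown, since several of these genes are known to be switched on by the other members. Those of Srebf1 and Nr1h3 were searched as well but are not shown. RefSeq entries of build GRCm38.p6 were matched for all 6 members, and the 250 bases before each start site are given from 5′ to 3′ along the gene. Capitals mark matches to the motifs searched on both strands. Mlxipl has 2 entries, chr5:135106641-135106890 and chr5:135089640-135089889, both on the plus strand. Txnip lies at chr3:96557707-96557956, Rgs16 at chr1:153740103-153740352 and Pnpla3 at chr15:84167566-84167815, all on the plus strand.
Mlxipl entry 1: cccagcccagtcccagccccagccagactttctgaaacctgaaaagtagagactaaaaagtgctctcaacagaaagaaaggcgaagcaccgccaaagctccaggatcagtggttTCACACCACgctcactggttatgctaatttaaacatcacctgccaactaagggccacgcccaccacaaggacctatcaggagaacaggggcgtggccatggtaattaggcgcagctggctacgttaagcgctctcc
Mlxipl entry 2: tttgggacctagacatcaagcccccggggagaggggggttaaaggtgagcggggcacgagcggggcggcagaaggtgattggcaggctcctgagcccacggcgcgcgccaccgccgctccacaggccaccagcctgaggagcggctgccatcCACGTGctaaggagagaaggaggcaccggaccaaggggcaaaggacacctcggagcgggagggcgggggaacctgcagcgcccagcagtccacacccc
Txnip: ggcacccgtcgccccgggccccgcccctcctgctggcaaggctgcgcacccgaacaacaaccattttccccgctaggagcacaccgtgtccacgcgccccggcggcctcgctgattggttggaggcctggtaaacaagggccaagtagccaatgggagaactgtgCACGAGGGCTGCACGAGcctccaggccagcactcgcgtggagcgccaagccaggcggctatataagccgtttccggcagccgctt
Rgs16: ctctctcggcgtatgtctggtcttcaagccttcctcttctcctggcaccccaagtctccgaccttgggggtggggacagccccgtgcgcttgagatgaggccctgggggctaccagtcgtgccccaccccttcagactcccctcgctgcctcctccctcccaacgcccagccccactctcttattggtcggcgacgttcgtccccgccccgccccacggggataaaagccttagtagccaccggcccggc
Pnpla3: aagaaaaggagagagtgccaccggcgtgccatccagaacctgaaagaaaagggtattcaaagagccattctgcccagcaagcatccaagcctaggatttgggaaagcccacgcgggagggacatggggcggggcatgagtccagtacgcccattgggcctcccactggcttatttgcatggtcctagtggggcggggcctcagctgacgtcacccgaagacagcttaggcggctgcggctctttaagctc
The first Mlxipl entry holds a sterol regulatory element, searched as TCACNCCAC, at positions -136 to -128 from the start, a motif found in 1.05% of all 32851 RefSeq promoters of the same length. The second Mlxipl entry holds an E-box, searched as CACGTG, at positions -98 to -93, and 6.02% of all promoters hold it. The Txnip promoter holds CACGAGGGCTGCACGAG at positions -85 to -69, a match to a degenerate carbohydrate response element, searched as CACNNG and CACNNG with 5 bases between them, which 0.910% of all promoters hold. Each CACNNG can itself be an E-box, and this form was added after the Txnip sequence had been seen. The strict carbohydrate response element, 2 copies of CACGTG with 5 bases between them, was in 0 of the 32851 promoters, and the form with 1 of its copies relaxed to CACNNG was in 0.0365%. The LXR direct repeat, 2 copies of AGGTCA with 4 bases between them, was in 0.0152% of promoters. The windows shown for Rgs16 and Pnpla3, and those of Srebf1 (3 entries) and Nr1h3 (2 entries), hold no letters matching any of these motifs. The LXR direct repeat was searched in its strict form alone, so a site that departs from that form would not be found. The lack of a match therefore does not show that an LXR site is absent. A match describes the letters only. Each member was read by 1 probe set, so for genes with several entries the levels are not resolved by start site.

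The levels below are the deposited intensities, a linear scale with array means of 0.962 to 0.999. Array medians were 0.125 to 0.132 in liver arrays and 0.224 to 0.276 in depot arrays. A change is a log2 difference from day 0 ± the standard error (SE) of a limma fit within the tissue that also held the letter, and the day 3 mouse with no letter is in the levels but not in the fits. A gene was called at a Benjamini-Hochberg adjusted p under 0.05 over all genes tested in that tissue, of which there were 13443 to 13633. All 6 members were among the genes tested in all 5 tissues. An alternative fit also held the summed levels of markers of other cell types, called marker sums below. In such bulk samples, fewer cells of a type and less RNA per cell cannot be told apart.

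The tissue labels were set against defining markers first. The 5 hepatocyte markers measured summed to 142 to 148 in day 0 liver, and the 5 adipocyte markers measured summed to 64.3 to 77.04 in the day 0 depots. The depot labels were not all borne out. The depot labelled perigonadal was low in mesothelial markers (summed level 0.353 to 0.485 at day 0, against 6.75 to 22.2 in the depot labelled subcutaneous) and held skeletal muscle markers at 6.74 to 66.8. The depot labelled subcutaneous held intestinal markers at 5.68 to 36.7 and B cell markers at 2.12 to 15.2. In the depot labelled mesenteric the epididymal markers reached 12.4, and in that labelled perirenal the brown adipocyte markers reached 31.4. The depots are therefore called by their labels only. The skeletal muscle sum of the labelled perigonadal depot had a median of 8.54 at day 0, 48.5 at day 42 and 53.03 at day 60.

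In liver Rgs16 fell to 0.536 of its day 0 level by day 3 and stayed low to day 42, and Txnip was lower from day 7 on. Srebf1 and Pnpla3 were higher than at day 0 on days 42 and 60. Mlxipl and Nr1h3 were higher on day 60 alone. Over all days together, 5 of the 6 members passed the moderated F test in liver, where 28.5% of all genes tested passed, and Nr1h3 did not (adjusted p = 0.149, limma). At day 1 limma called 0 members, against 3.63% of all genes, and 1 member, Srebf1, had an unadjusted p under 0.05. Rgs16 alone was called at day 3 (4.09% of all genes). Rgs16 and Txnip were called at day 7 (8.41%), day 14 (12.2%) and day 21 (8.95%). At day 42, 4 of the 6 were called (21.3%), and at day 60, 5 of the 6 (20%).

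**Figure D1:**
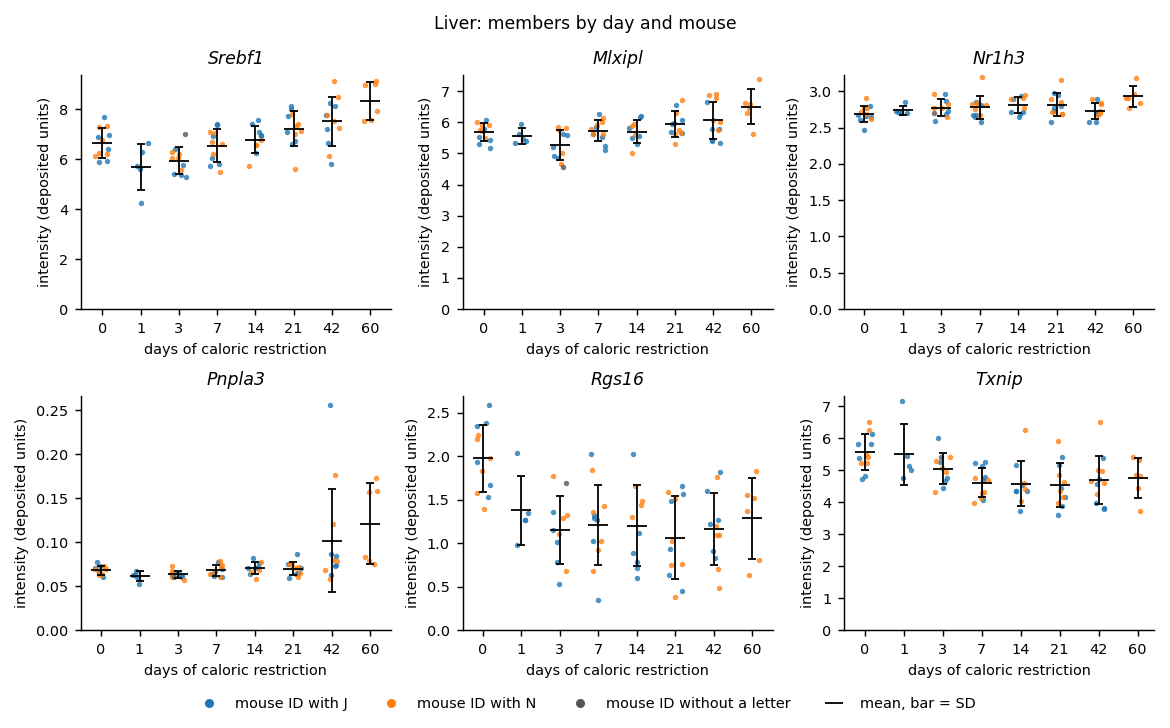
Deposited intensity (linear scale) of the 6 members in liver by day of restriction, with 1 point per mouse coloured by the letter of the animal ID and the mean ± SD of each day. Rgs16 runs from a day 0 median of 1.96 to 0.983 at day 21, and the Pnpla3 points of days 42 and 60 spread upwards to 0.256.

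Srebf1 in liver had intensities of 5.89, 6.61 and 7.69 (lowest, median, highest of 12 mice) at day 0. The same 3 values were 5.31, 6.04 and 7.03 in 11 mice at day 3, 5.82, 7.65 and 9.15 in 12 mice at day 42, and 7.52, 8.46 and 9.13 in 6 mice at day 60. At day 60, 4 of 6 mice lay above every day 0 mouse, and at day 42 it was 6 of 12, so the groups overlapped. The day 3 change was -0.19 ± 0.06 and was not called (limma, adjusted p = 0.0883). The rise at day 60 was 0.33 ± 0.08 (limma, adjusted p = 0.00106), or 1.26-fold, and all 6 mice lay above the day 0 mean of their letter. The rise at day 42 was 0.17 ± 0.06 (limma, adjusted p = 0.0374) and lost its call in J or N mice alone, with marker sums in the fit, and without any single one of the mice J21, J4, J55, N20, N70 and N92. Between day 3 and day 42 the gene rose by 0.36 ± 0.06 (limma, adjusted p = 8.48e-05). In that contrast 3 of the 6 members were called in liver, Srebf1, Mlxipl and Pnpla3, all of them higher at day 42, against 12.9% of all genes tested.

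Mlxipl, the ChREBP gene, was called in liver at day 60 alone. Its lowest, median and highest intensities were 5.19, 5.74 and 6.09 at day 0, 4.57, 5.19 and 5.85 at day 3, and 5.64, 6.52 and 7.39 at day 60. The day 60 mice lay above every day 0 mouse in 5 of 6 cases, the exception being N14. The day 60 rise was 0.17 ± 0.05 (limma, adjusted p = 0.0136), or 1.12-fold, and was not called without mouse N22, in N mice alone or with marker sums in the fit. The day 42 change of 0.09 ± 0.04 was not called (adjusted p = 0.102, limma), whereas the rise from day 3 to day 42 was 0.18 ± 0.04 (adjusted p = 0.0019, limma).

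The intensities of Nr1h3, the LXR alpha gene, in liver were 2.46, 2.68 and 2.90 at day 0 and 2.77, 2.91 and 3.19 at day 60, with 4 of 6 day 60 mice above every day 0 mouse. The day 60 rise of 0.10 ± 0.03 (limma, adjusted p = 0.0215) was the only called day contrast of this gene in any of the 5 tissues, and its call was lost without mouse N43, in N mice alone and with marker sums in the fit. N mice were 0.04 ± 0.02 above J mice in liver (limma, adjusted p = 0.0416), where 2004 of 13536 genes were called between the letters. In the 4 labelled depots no day contrast of Nr1h3 was called by limma, and the changes at day 60 lay between -0.05 and 0.10.

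Pnpla3 in liver was read near the low end of the array, below the median of all probe sets on most arrays. Its intensities were 0.0600, 0.0675 and 0.0769 (lowest, median, highest) at day 0, 0.0584, 0.0794 and 0.256 at day 42, and 0.0756, 0.120 and 0.173 at day 60. The late values were split between mice. At day 60 mice N22, N43 and N59 had 0.173, 0.158 and 0.157, and mice N14, N62 and N82 had 0.0787, 0.0829 and 0.0756. At day 42 mouse J4 had 0.256, N92 0.177 and N70 0.120, and the other 9 mice lay between 0.0584 and 0.0862. Pnpla3 rose by 0.75 ± 0.16 at day 60 (limma, adjusted p = 0.000338), or 1.68-fold, and by 0.43 ± 0.13 at day 42 (adjusted p = 0.00904, limma). No detection call was used, so it is not shown that the day 0 readings lay above background, and these folds may understate the change. The day 60 call held under each alternative that could be computed for it, with the lowest value, 0.37, when 0.1 was added to the intensities, and the day 42 call was lost within either letter and with marker sums in the fit.

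At each of the days 3 to 42, Rgs16 had the largest log2 change from day 0 of the 6 members in liver. Its intensities were 1.39, 1.96 and 2.59 at day 0, 0.529, 1.15 and 1.77 at day 3, 0.384, 0.983 and 1.66 at day 21, and 0.486, 1.14 and 1.82 at day 42. At day 3, 9 of 11 mice lay below every day 0 mouse, and at day 42, 9 of 12 did. Rgs16 fell by 0.90 ± 0.25 at day 3 (limma, adjusted p = 0.0201), by 1.03 ± 0.23 at day 21 (adjusted p = 0.00205) and by 0.83 ± 0.23 at day 42 (adjusted p = 0.00651). The falls at day 7, 0.80 ± 0.23, and day 14, 0.79 ± 0.25, were called as well. At day 60 the change was -0.71 ± 0.30 and was not called (limma, adjusted p = 0.0789), although all 6 mice lay below the day 0 mean of their letter. None of the 5 falls was called in J mice alone or in N mice alone, where the day 42 values were -0.73 and -0.92.

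Other genes with a daily rhythm also differed from day 0 in liver. Of 12 clock and clock output genes, 3 were higher and 6 lower at day 3, where 553 of 13536 genes tested were called in either direction. Arntl, which encodes a core clock activator, rose by 0.95, and the clock outputs Nr1d1 and Dbp had changes of -0.70 and -0.69, all called by limma. At day 42 the changes were 0.64 for Arntl and -0.50 for both Nr1d1 and Dbp, again called. Over all genes tested, 2885 of 13536 were called in liver at that day. The hour of killing is not in the labels, and the part of the clock in the fall of Rgs16 was not tested. The calls of Rgs16 at days 7, 14 and 42, and those of Txnip at all 5 days, were also lost once the summed levels of skeletal muscle, erythrocyte and adipocyte markers entered the liver fit. In liver the adipocyte sum had a median of 3.61 at day 0 and 2.10 at day 60, with Cfd and Cidec called lower among its 5 genes, and at day 42 the erythroid genes Alas2 and Slc4a1 had called changes of -0.45 and -0.20. Whether these markers were read from other cells or from hepatocytes was not tested, nor was their part in the changes of Rgs16 and Txnip.

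Txnip was also lower in the liver of restricted mice. Its intensities were 4.72, 5.45 and 6.51 at day 0, 3.99, 4.69 and 5.26 at day 7, and 3.79, 4.63 and 6.52 at day 42. At day 7, 7 of 12 mice lay below every day 0 mouse, at day 14, 8 of 10, and at days 21 and 42, 8 of 12 each. Txnip fell by 0.27 ± 0.07 at day 7 (limma, adjusted p = 0.0126), by 0.30 ± 0.07 at day 21 (adjusted p = 0.00485) and by 0.26 ± 0.07 at day 42 (adjusted p = 0.00812), calls that were lost in J mice alone, and at days 14, 21 and 42 also in N mice alone. The fall of 0.25 ± 0.09 at day 60 (adjusted p = 0.0447) lost its call without the letter term (adjusted p = 0.0552), with centred arrays, with no filter on low genes, and without any single one of N14, N22, N43 and N62.

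Of the 28 contrasts of a single day with day 0 that each member had over the 4 labelled depots, limma called 9 for Mlxipl, 7 for Srebf1, 4 for Pnpla3, 2 for Txnip and 0 for Nr1h3 and Rgs16. Over all genes tested, a single one of these contrasts called from 0 of 13443 genes (subcutaneous, day 1) to 4338 of 13475 (mesenteric, day 42). All 9 called contrasts of Mlxipl, and those of Srebf1 and Pnpla3 called at day 42 or 60, were higher than day 0. Over all days 3 of the 6 members passed in the depot labelled mesenteric (38.2% of all genes tested), 5 in that labelled perirenal (24.9%), 4 in that labelled perigonadal (36.1%) and 3 in that labelled subcutaneous (5.79%).

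**Figure D2:**
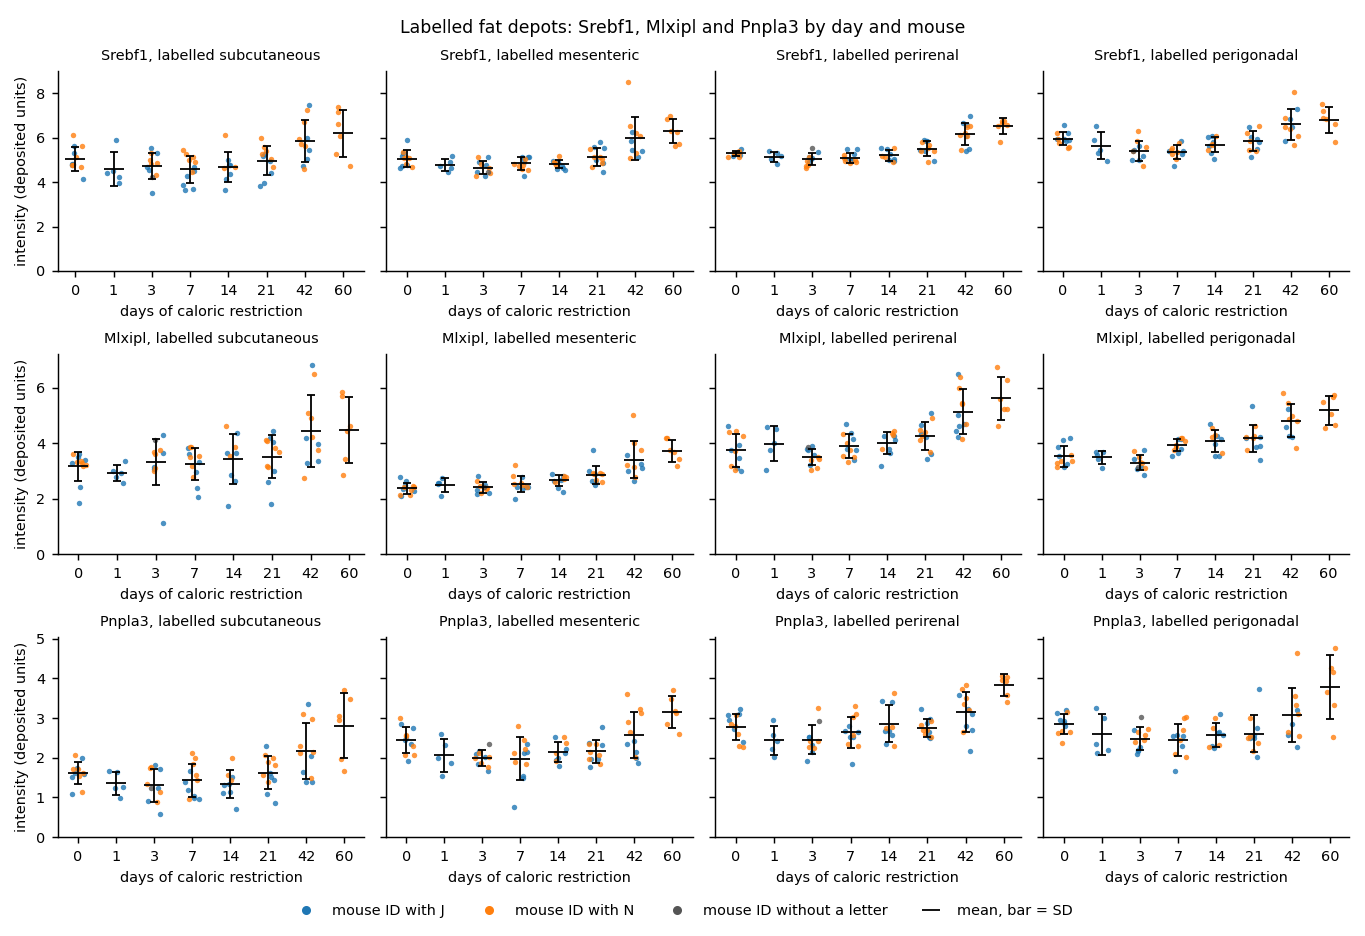
Deposited intensity (linear scale) of Srebf1, Mlxipl and Pnpla3 by day of restriction in the 4 labelled adipose depots, with 1 point per mouse coloured by letter and the mean ± SD of each day. The 6 day 60 values of Mlxipl lie above all day 0 values in the depots labelled mesenteric and perigonadal.

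Few members were called in the depots before day 42. The labelled mesenteric depot had 0 members called by limma at day 1 (0.0445% of all genes), day 3 (0.542%) and day 14 (4.36%), and 1 at day 7 (3.84%) and day 21 (16.5%). The labelled perigonadal depot had 0 at day 1 (0.357%) and day 3 (1.54%), and 1 at day 7 (9.55%), day 14 (13.4%) and day 21 (19.6%). The labelled perirenal depot had 0 at day 1 (0.0367%), day 3 (0.022%), day 7 (0.0954%), day 14 (0.587%) and day 21 (3.36%). The labelled subcutaneous depot had 0 called up to day 42, where all genes gave 0% at days 1, 3 and 7, 0.0669% at day 14, 0.156% at day 21 and 4.03% at day 42. In these comparisons without a call, 4 members had an unadjusted p under 0.05 in the subcutaneous depot at day 42, 3 in the perirenal at day 3, and 0 to 2 in each of the others. Late in restriction 2 of 6 were called at day 42 in 3 of the depots, the labelled mesenteric (32.2%), perirenal (22%) and perigonadal (26.9%). At day 60 it was 2 in the depot labelled mesenteric (26.2%), 3 in the perirenal (20.1%), 4 in the perigonadal (21.7%) and 2 in the subcutaneous (9.73%).

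Mlxipl in the depot labelled mesenteric had 2.09, 2.37 and 2.77 (lowest, median, highest) at day 0, 2.64, 3.22 and 5.02 at day 42, and 3.19, 3.71 and 4.18 at day 60. All 6 day 60 mice and 10 of 11 day 42 mice lay above every day 0 mouse. Mlxipl rose there by 0.26 ± 0.07 at day 21 (limma, adjusted p = 0.00305), 0.50 ± 0.07 at day 42 (adjusted p = 1.73e-08) and 0.62 ± 0.08 at day 60 (adjusted p = 2.57e-08), the last being 1.54-fold. For the labelled perigonadal depot the values were 3.15, 3.35 and 4.19 at day 0 and 4.54, 5.27 and 5.74 at day 60, again without overlap. The rises there on days 14, 21, 42 and 60 were 0.21 ± 0.06, 0.24 ± 0.06, 0.44 ± 0.06 and 0.54 ± 0.07 in turn, each called by limma with an adjusted p of 5.69e-08 for the last. The earlier 3 rises lost their calls with the marker sums of 8 other cell types and organs in the fit, an alternative chosen after seeing the data, where the day 42 value was 0.26 (limma, adjusted p = 0.0608). With these wider sums, and in J mice alone, the day 21 rise in the mesenteric depot was not called either. Of the 8 skeletal muscle genes of the labelled perigonadal depot, 0 were called at day 42 or 60, with changes of 0.60 to 2.13. Mlxipl in the labelled perirenal depot had 2.99, 3.74 and 4.63 at day 0 and 4.63, 5.43 and 6.75 at day 60, where only N62 lay within the day 0 range. It rose there by 0.45 ± 0.08 at day 42 (adjusted p = 9.43e-06, limma) and 0.58 ± 0.10 at day 60 (adjusted p = 7.9e-06, limma). The change of Mlxipl in the subcutaneous depot at day 42, 0.45 ± 0.15, was not called (adjusted p = 0.0829, limma), with values of 1.85 to 3.62 at day 0 and 2.74 to 6.83 at day 42. In J mice and N mice taken apart, the day 42 changes of Mlxipl were 0.35 and 0.63 in the depot labelled mesenteric, 0.32 and 0.56 in the perigonadal, 0.43 and 0.48 in the perirenal and 0.51 and 0.40 in the subcutaneous, where the J value was 0.33 without mouse J4.

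Srebf1 in the depot labelled perirenal had 5.12, 5.32 and 5.52 at day 0, 4.63, 5.04 and 5.53 at day 3, 5.43, 6.16 and 7.00 at day 42, and 5.81, 6.63 and 6.77 at day 60. At day 60 all 6 mice lay above every day 0 mouse, and at day 42, 9 of 12 did, whereas at day 3, 7 of 11 lay below. Srebf1 rose there by 0.22 ± 0.03 at day 42 (limma, adjusted p = 5.06e-07) and 0.31 ± 0.04 at day 60 (adjusted p = 4.49e-08), calls that held under each alternative tried. The mesenteric rises were 0.23 ± 0.05 and 0.31 ± 0.06 on the same days (limma, adjusted p = 0.000203 and 7.32e-05), and 0.06 and 0.14 without a call with the wider marker sums. In that labelled perigonadal Srebf1 fell by 0.15 ± 0.05 at day 7 (limma, adjusted p = 0.0299), with 9 of 11 mice below every day 0 mouse, and rose by 0.14 ± 0.05 at day 42 (adjusted p = 0.0213) and 0.19 ± 0.06 at day 60 (adjusted p = 0.015). The day 42 value there turned to -0.08 with the wider marker sums in the fit (adjusted p = 0.574), and the day 60 value was 0.02. Its day 42 call was also lost within either letter and without mouse J36 or N70, that of day 60 without N82, and that of day 7 within either letter. In the subcutaneous depot the changes of 0.20 ± 0.08 at day 42 and 0.21 ± 0.10 at day 60 were not called (limma, adjusted p = 0.156 and 0.152). N mice were there 0.16 ± 0.05 above J mice (limma, adjusted p = 0.0447), and 1117 of 13443 genes were called between the letters.

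Pnpla3 had readings well above those of liver in every depot, on a scale whose array medians also differ between tissues. Its perirenal values were 2.28, 2.83 and 3.22 at day 0 and 3.41, 3.95 and 4.07 at day 60, without overlap. It rose at day 60 by 0.44 ± 0.10 there (limma, adjusted p = 0.000688), by 0.36 ± 0.12 in the depot labelled perigonadal (adjusted p = 0.0212) and by 0.61 ± 0.20 in that labelled subcutaneous (adjusted p = 0.0415). The subcutaneous call was lost without any single one of N14, N22, N43 and N59, and the perigonadal call without N22, N43 or N82. Pnpla3 in the labelled mesenteric depot fell by 0.36 ± 0.11 at day 7 (limma, adjusted p = 0.0409), with 5 of 12 mice below every day 0 mouse. That call was lost without the letter term, in J or N mice alone and with marker sums in the fit. Its day 60 change of 0.29 ± 0.14 was not called (adjusted p = 0.104, limma).

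The changes of Pnpla3 from day 0 were -0.09 at day 3 and 0.43 at day 42 in liver. In the depot labelled subcutaneous they were -0.36 and 0.37. They were -0.32 and 0.05 in the mesenteric, -0.21 and 0.17 in the perirenal and -0.24 and 0.08 in the perigonadal depot. No day 3 change, and of the day 42 changes that in liver alone, was called by limma. Between day 3 and day 42 Pnpla3 rose in all 5 tissues, in part from levels below day 0. The rise was 0.52 ± 0.13 in liver, 0.73 ± 0.17 in the depot labelled subcutaneous, 0.36 ± 0.12 in the mesenteric, 0.38 ± 0.08 in the perirenal and 0.31 ± 0.10 in the perigonadal, with limma adjusted p-values from 0.000639 to 0.0178. Srebf1 and Mlxipl rose over the same interval in liver and in 3 labelled depots, and in the subcutaneous depot their changes of 0.28 ± 0.08 and 0.46 ± 0.16 were not called (limma, adjusted p = 0.0588 and 0.14). In J mice alone the Pnpla3 rise was called in none of the tissues, and in N mice alone it was called in the mesenteric and perirenal depots. Of the 6 members, limma called 1 in the depot labelled subcutaneous (1.41% of all genes), 3 in the mesenteric (23.5%), 5 in the perirenal (20.8%) and 4 in the perigonadal (22.3%). From day 42 to day 60 limma called 0 members in each tissue, with 0 to 2 members a tissue at an unadjusted p under 0.05, against 0.00739% of all genes in liver, 0.00744% in the depot labelled subcutaneous and 0% in the other 3. The unadjusted p was under 0.05 for 1258 genes in liver and 638 to 1457 in the depots in that contrast.

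**Figure D3:**
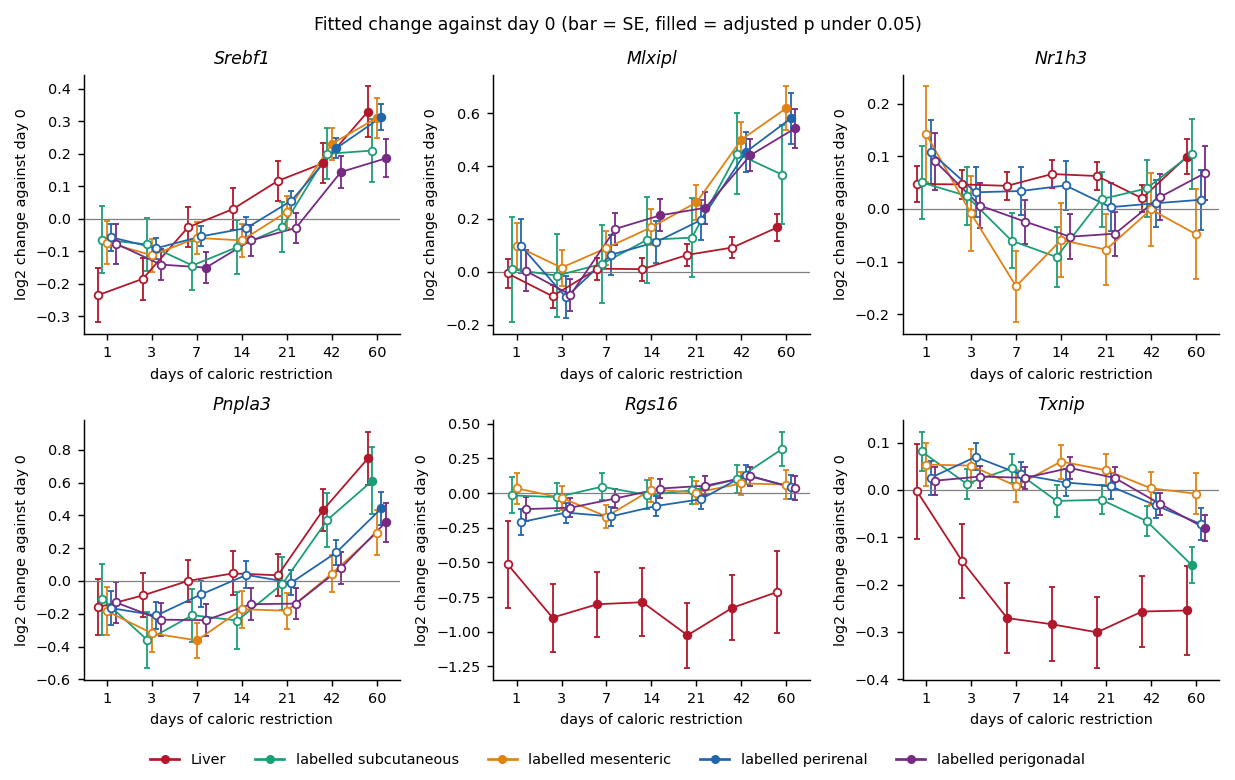
Log2 change from day 0 ± SE of each member at each day in liver and the 4 labelled depots, from the limma fits, with filled points where the adjusted p is under 0.05. In liver Rgs16 is called lower on days 3 to 42 and Txnip on days 7 to 60, and Mlxipl reaches 0.62 in the depot labelled mesenteric at day 60.

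Rgs16 was read at the low end of the array in the depots, at 0.0710 to 0.137 over the 4 labelled depots at day 0. No change from day 0 was called there for it by limma. From day 3 to day 42 it rose by 0.27 ± 0.07 in the depot labelled perirenal (limma, adjusted p = 0.00441) and by 0.23 ± 0.07 in that labelled perigonadal (adjusted p = 0.0166). Both calls were lost in J or N mice alone, and the perigonadal call also without mouse N70. Txnip had readings of 10.4 to 14.1 in the depots at day 0 and 9.47 to 12.9 at day 60. It fell by 0.16 ± 0.04 at day 60 in the depot labelled subcutaneous (limma, adjusted p = 0.00457), a call that held under each alternative tried. In that labelled perigonadal it fell by 0.08 ± 0.03 (adjusted p = 0.0282), a call lost with centred arrays, in N mice alone and without N22, N43 or N82. Between day 3 and day 42 Txnip fell by 0.10 ± 0.03 in the depot labelled perirenal (limma, adjusted p = 0.0069), which was not called in J or N mice alone.

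The difference between liver and each depot in the day effect was tested itself. At day 42 limma called 10 of 24 differences, and at day 3 it called 0 of 24, with 7 at an unadjusted p under 0.05. The background at day 42 was 4.06% of all genes tested against the depot labelled subcutaneous, 24.5% against the mesenteric, 18.7% against the perirenal and 20.5% against the perigonadal. At day 3 it was 0.0158%, 1.71%, 0.491% and 3.24% in the same order. For Rgs16 the liver change minus the depot change at day 42 was -0.93 ± 0.26 for the subcutaneous, -0.90 ± 0.25 for the mesenteric, -0.96 ± 0.24 for the perirenal and -0.95 ± 0.26 for the perigonadal depot, all called (limma, adjusted p = 0.00208 to 0.0186). With depot readings below the array medians, a fall of Rgs16 in the depots may not have been measurable, and this limit was not tested. For Mlxipl the difference was -0.41 ± 0.08 for the mesenteric, -0.36 ± 0.09 for the perirenal and -0.35 ± 0.07 for the perigonadal depot (limma, adjusted p = 2.37e-05 to 0.00111), and -0.36 ± 0.16 for the subcutaneous depot, which was not called (adjusted p = 0.22). For Txnip the difference was -0.26 ± 0.08, -0.22 ± 0.08 and -0.23 ± 0.08 for the mesenteric, perirenal and perigonadal depots (limma, adjusted p = 0.0137, 0.0344 and 0.0358). With within-animal differences, a replicate block, the perigonadal difference of Txnip was -0.15 and lost its call (adjusted p = 0.203). Arrays centred on their median ended the calls of Txnip against the perirenal and perigonadal depots (adjusted p = 0.0859 and 0.102). No difference was called for Srebf1, Nr1h3 or Pnpla3. The Srebf1 differences lay between -0.06 ± 0.08 and 0.03 ± 0.08, and that of Pnpla3 against the mesenteric depot was 0.39 ± 0.17 (limma, adjusted p = 0.0846). At day 3 the Rgs16 differences ran from -0.87 to -0.76 with adjusted p-values of 0.0583 to 0.2.

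Whether the day 42 change differed between J and N mice was tested in each tissue, and limma called 0 genes in all 5, so the background was 0%. Between 184 and 998 genes a tissue had an unadjusted p under 0.05, among them 0 members in liver and the subcutaneous depot, 2 in each of the mesenteric and perirenal depots and 1 in the perigonadal depot. Pnpla3 had day 42 changes of -0.19 in J and 0.26 in N mice in the depot labelled mesenteric, -0.002 and 0.35 in the perirenal, and -0.14 and 0.27 in the perigonadal. In liver its J and N values were 0.44 and 0.42. Each rested on single mice, since the J value was 0.15 without mouse J4 and the N value 0.23 without N92, alternatives chosen after seeing the data. In the perigonadal depot the J value was -0.05 without J55 and -0.22 without J36, and the N value 0.17 without N70.

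The late rise was carried unequally by the mice. Mice N70 and N92 of day 42, and N22 and N43 of day 60, lay above every day 0 mouse in all 5 tissues for each of Srebf1, Mlxipl and Pnpla3. Mouse N59 of day 60 did so in all 5 tissues for Mlxipl and Pnpla3 and in 4 for Srebf1. Mouse J4 of day 42, measured in 3 tissues, did so in all 3 for the 3 genes. Mouse N62 of day 60 did so in 1 tissue for Srebf1, 3 for Mlxipl and 2 for Pnpla3. Day 42 mice J30 and J33 did so in 0 or 1 tissue for each of the 3 genes. For Nr1h3, N22 and N43 lay above every day 0 mouse in 4 tissues, N70 in 3 and N92 in 1. For Rgs16, N70 did so in 3, N43 in 1, and N22 and N92 in 0. For Txnip, N70 lay below every day 0 mouse in 4 tissues, N22 and N43 in 3 and N92 in 1. How many of all genes put these mice outside the day 0 range is not given here.

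**Figure D4:**
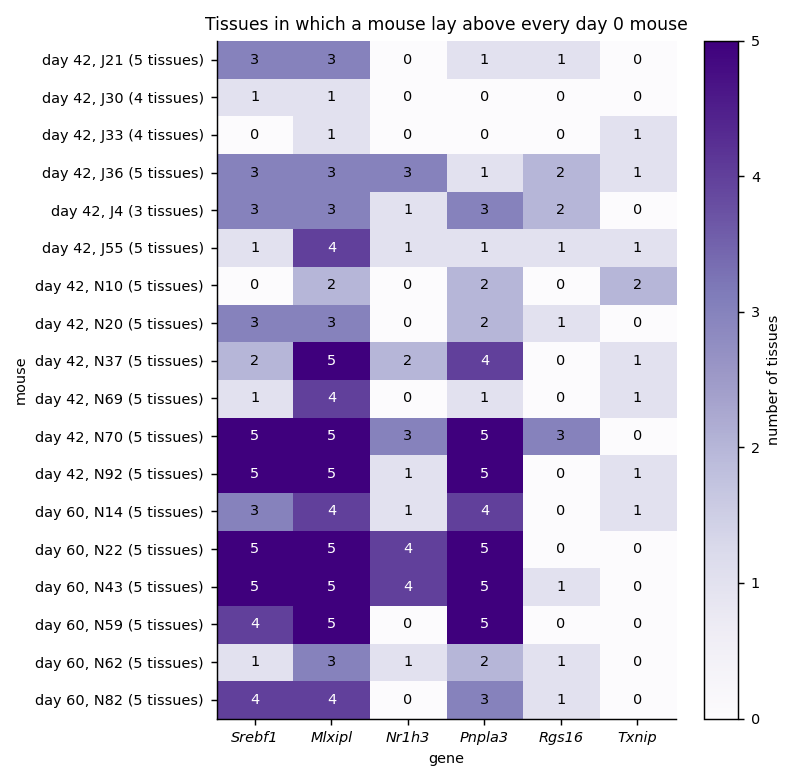
Number of tissues in which each day 42 and day 60 mouse lay above every day 0 mouse, for Srebf1, Mlxipl and Pnpla3. N70, N92, N22 and N43 reach all 5 tissues for the 3 genes.

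Within a member, the deviation of a mouse from the mean of its day and letter was correlated between tissues over 72 to 79 mice. Of 60 such relations, 35 were positive and 3 negative at a Benjamini-Hochberg adjusted permutation p under 0.05 for Pearson's r, and 33 passed for Spearman's rho as well. Over all genes tested in both tissues of a pair the median r was 0.0857, against 0.28 for the members, and 15.9% of relations reached the lowest called r of the members, 0.249. That share was 6.95% to 10.9% between liver and a depot, where 6 of 24 relations of members reached it, and 11.9% to 28.8% between depots, where 29 of 36 did. An r at or below -0.249 was found in 0.83% of relations over all genes, and in 1.14% to 1.6% of those between liver and a depot. These are counts of genes that share the same mice, given as a description. The relation with the highest r was that of Mlxipl between the depots labelled mesenteric and perigonadal, with r = 0.73 and rho = 0.72. Both had a permutation p of 1e-05, the smallest that 100000 resamples can give (adjusted p = 6e-05 and 6.67e-05 over the 60). It was 0.68 without the 2 mice farthest from the median, 0.76 in J mice and 0.70 in N mice. For the same depots Pnpla3 had r = 0.63 (rho = 0.58) and Srebf1 r = 0.62 (rho = 0.57), each with a permutation p of 1e-05. All 3 negative relations were those of Rgs16 in liver with Rgs16 in the depots labelled mesenteric (r = -0.28, rho = -0.30, permutation p = 0.0136, adjusted p = 0.0264), perirenal (r = -0.28, rho = -0.35, permutation p = 0.012, adjusted p = 0.0249) and perigonadal (r = -0.26, rho = -0.34, permutation p = 0.0238, adjusted p = 0.0396). Without the 2 farthest mice they were -0.30, -0.26 and -0.30. In J mice they were -0.24, -0.11 and -0.33, and in N mice -0.31, -0.49 and -0.19. Between depots Rgs16 deviations were positively related in 4 of 6 pairs by r, of 0.32 to 0.43, and in 3 of them by rho as well. Depot readings of Rgs16 had medians of 0.0834 to 0.113, below the array medians. The part of background signal in the relations of Rgs16 was not tested. Srebf1 in liver had r of -0.01 to 0.26 with the depots.

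**Figure D5:**
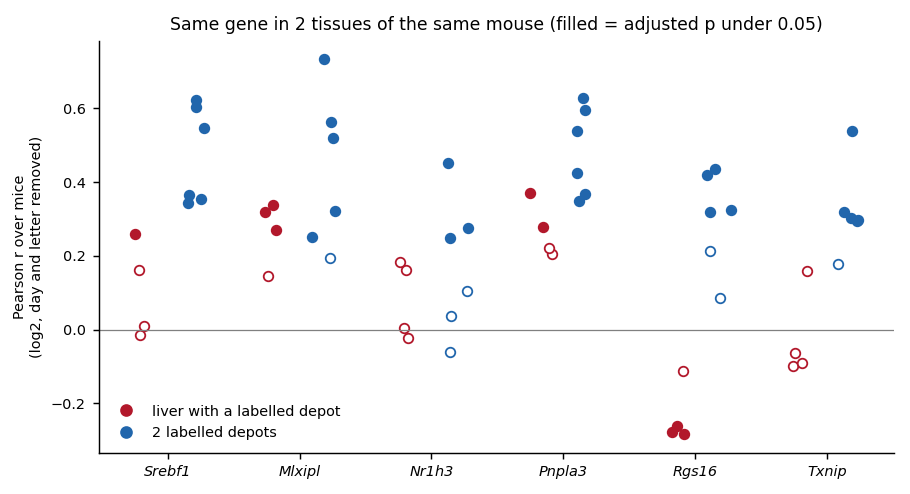
Pearson's r of each member's deviations from the mean of day and letter between pairs of tissues, separating liver with a depot from depot with depot, over 72 to 79 mice. Rgs16 has r of -0.28 to -0.11 between liver and the depots, and Mlxipl reaches 0.73 between 2 depots.

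Pairs of members were compared in the same way within a tissue. Of 75 relations, 27 were positive and 8 negative at an adjusted permutation p under 0.05 for Pearson's r, and 25 passed for rho as well. Of all pairs of genes tested, 19.9% had an r at or above the lowest called size of the members, 0.259, and 18% an r at or below its negative, so the members' counts are given with no reading from them. In the depot labelled subcutaneous these shares were 30.8% and 29.6%. In the depot labelled subcutaneous the deviations of Srebf1 were related to those of Nr1h3 (r = 0.85, rho = 0.85), Pnpla3 (r = 0.78, rho = 0.77) and Mlxipl (r = 0.72, rho = 0.67), each with a permutation p of 1e-05 over 77 mice. Without the 2 farthest mice they were 0.83, 0.75 and 0.67, and over J and N mice apart they lay between 0.71 and 0.86. At day 0 this depot had the widest range of intestinal, B cell and pancreatic marker sums of the 4, and the part of tissue makeup in these relations was not tested. In liver the relation of Srebf1 with Nr1h3 had r = -0.03, that of Srebf1 with Pnpla3 r = 0.39 (rho = 0.35) and that of Mlxipl with Pnpla3 r = 0.41 (rho = 0.33), over 79 mice. Pnpla3 was also related to Rgs16 in liver (r = 0.36, rho = 0.29, adjusted permutation p = 0.00549), and in the depot labelled perirenal the same pair had r = -0.33 (rho = -0.35, adjusted permutation p = 0.00784). Pnpla3 in liver and Rgs16 in the depots were read near the low end of the array. The part of background signal in their relations was not tested.

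The genes whose log2 levels were most like those of each member over all mice of a tissue were named by Pearson's r, as a description, since arrays of 1 tissue share day and tissue makeup. In liver (79 mice) Srebf1 was closest to Mid1ip1, which encodes an activator of acetyl-CoA carboxylase, at r = 0.80, and to the fatty acid synthase gene Fasn at r = 0.77. Liver Mlxipl was closest to Acaca, the acetyl-CoA carboxylase gene, at r = 0.71 and to Abhd14a at r = 0.70. Liver Pnpla3, read near the low end of the array, was closest to Pgd, of the pentose phosphate pathway, and Rassf6, both at r = 0.78 with lower rho of 0.52 and 0.39. Liver Txnip was closest to Klf10 at r = 0.70 and to Arrdc3, an arrestin-like relative of Txnip, at r = 0.67. Liver Rgs16 was closest to Snai2 and Cdc42ep4, both at r = 0.61, and liver Nr1h3 to Mvb12a and Mrps7 at r = 0.84 and 0.83.

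In the depots Mlxipl was closest to the desaturase gene Fads1 and to Arhgap24 at r = 0.91 and 0.87 in that labelled perigonadal (74 mice). In that labelled mesenteric (78 mice) it was closest to Ugp2 and Acaca at r = 0.88 and 0.87. In that labelled perirenal it was closest to Sh2b2 and Stk40 at r = 0.88 and 0.87, and in the subcutaneous to Ddhd2 and Pdha1, both at r = 0.87. Srebf1 was closest to Aacs, which encodes acetoacetyl-CoA synthetase, and Rab3a in the mesenteric depot, both at r = 0.83. It was closest to Fdft1, the squalene synthase gene, and Ptges in the perirenal depot, both at r = 0.80. Its highest r was in the subcutaneous depot, with Ucp3 and Ptges, both at 0.90. In the perigonadal depot its closest genes were Slc25a22 and Pdp2 at r = 0.80 and 0.79. Pnpla3 was closest to Ptges and Srebf1 in the subcutaneous depot (r = 0.87 and 0.86). In the mesenteric its closest genes were Myorg and Ptger3 (0.87 and 0.81). They were Irgq and Angptl8 in the perirenal (0.74 and 0.70) and Acaca and Aacs in the perigonadal (0.78 and 0.75). Rgs16, read at the low end of the array in the depots, had Bcl3 as its closest gene in the mesenteric and perirenal depots at r = 0.77 and 0.69. Txnip had Fbxo21 in the perirenal and perigonadal depots at r = 0.77 in each. Other depot neighbours of Nr1h3, Rgs16 and Txnip are not named here.

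Genes known to work with or under the members were counted from 4 lists of 14 or 15 genes. Of the SREBP-1 target list 12 genes were tested in liver, and 7 passed over all days (28.5% of all genes tested). At day 3 limma called 0 of the 12 higher and 5 lower (4.09% of all genes in either direction), with a list median of -0.12 against -0.0038 over all genes tested. At day 60 it called 5 higher and 2 lower (20%), with a median of 0.10 against -0.0033. Fasn fell by 0.40 ± 0.10 at day 3 (limma, adjusted p = 0.0115) and rose by 0.54 ± 0.12 above day 0 at day 60 (adjusted p = 0.000636). Acaca fell by 0.24 ± 0.07 at day 3 and rose by 0.36 ± 0.09 at day 60, both called by limma. Angptl8, which encodes an insulin-induced inhibitor of lipoprotein lipase, rose by 0.59 ± 0.13 at day 42 and 0.98 ± 0.16 at day 60 (limma, adjusted p = 3.78e-06 for the last). From day 3 to day 42, 5 of the 12 were called higher and 0 lower (12.9%).

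For the depots limma gave the following counts of SREBP-1 targets at day 60. There were 6 of 12 higher and 2 lower in the depot labelled mesenteric (26.2% of all genes in either direction), 4 of 12 higher and 0 lower in each of the perirenal (20.1%) and perigonadal (21.7%), and 3 of 11 higher and 0 lower in the subcutaneous (9.73%). The list medians were 0.13, 0.09, 0.07 and 0.14 in the same order, against 0.01 over all genes in each. Acaca rose at day 60 by 0.45 ± 0.09, 0.31 ± 0.09, 0.38 ± 0.08 and 0.45 ± 0.13 in the same order, all called by limma. Fads1 rose by 0.47 ± 0.07 in the perigonadal depot (adjusted p = 9.38e-08, limma), and Aacs by 0.56 ± 0.10 in the perirenal (adjusted p = 2.55e-05, limma). Angptl8 rose by 1.39 ± 0.23 in the subcutaneous depot (adjusted p = 3e-05, limma). Fasn was called lower earlier in the mesenteric depot, by 0.18, 0.15 and 0.14 on days 7, 14 and 21, and in the perigonadal, by 0.25, 0.30 and 0.23 (limma, adjusted p = 0.00016 to 0.0213). Its day 60 changes of 0.11 ± 0.05 and 0.11 ± 0.07 in these depots were not called. Over the whole list, limma called 0 higher and 2, 2 and 3 of 12 lower on those days in the mesenteric (3.84%, 4.36% and 16.5% of all genes), and 0, 1 and 2 higher and 2, 2 and 3 lower in the perigonadal depot (9.55%, 13.4% and 19.6%).

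Of the ChREBP target list, 8 of 14 genes tested passed over all days in liver (28.5% of all genes), in no single direction. At day 42 limma called 1 higher and 2 lower (21.3%), and at day 60, 3 higher and 1 lower (20%), shares near those of all genes, with a list median of 0.04 against -0.0033. The elongase gene Elovl6 rose in liver by 0.52 ± 0.14 at day 60 (limma, adjusted p = 0.0035) and Acly, the ATP citrate lyase gene, by 0.16 ± 0.04 (adjusted p = 0.00486). Gpd1, of glycerol 3-phosphate synthesis, fell by 0.18 ± 0.04 (adjusted p = 0.000803, limma). In the depot labelled mesenteric 7 of 13 were higher and 0 lower at day 60 (26.2% of all genes called, list median 0.20 against 0.01), and in the perigonadal 5 of 11 higher and 0 lower (21.7%, median 0.16 against 0.01). In the perirenal depot it was 2 of 13 higher and 0 lower (20.1%), and in the subcutaneous 2 of 14 higher and 0 lower (9.73%). Slc2a4, the gene of the insulin-responsive glucose transporter, rose by 0.30 ± 0.07 in the mesenteric and 0.25 ± 0.05 in the perirenal depot. Acly rose by 0.20 ± 0.05 in the mesenteric, 0.25 ± 0.05 in the perigonadal and 0.30 ± 0.05 in the subcutaneous depot, and Khk, the fructokinase gene, by 0.21 ± 0.05 in the perigonadal, all at day 60 and called by limma.

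Of the LXR target list, 5 of 12 genes passed over all days in liver (28.5% of all genes). At day 60 limma called 0 higher and 2 lower there (20%), among them Abcg8, of the biliary cholesterol exporter, which fell by 0.39 ± 0.08 (adjusted p = 0.000127). From day 3 to day 42, 0 of 12 were higher and 5 lower in the depot labelled mesenteric (23.5% of all genes in either direction), 0 of 11 higher and 5 lower in the perirenal (20.8%), 1 of 11 higher and 4 lower in the perigonadal (22.3%) and 0 of 12 higher and 1 lower in the subcutaneous (1.41%). The list medians were -0.04, -0.10, -0.05 and -0.0015 in the same order, against 0.0060, 0.02, 0.0058 and 0.0032 over all genes. Against day 0 the calls were mixed in 3 of the depots. At day 60 limma called 1 of 12 higher and 3 lower in the mesenteric (26.2%), 1 of 11 higher and 2 lower in the perirenal (20.1%), 1 of 11 higher and 3 lower in the perigonadal (21.7%) and 0 of 12 higher and 2 lower in the subcutaneous depot (9.73%). Abcg5, the partner of Abcg8, was the gene called higher in the mesenteric depot, by 0.38 ± 0.12 (limma, adjusted p = 0.00945), and is named after its values were seen. Lpcat3, a phospholipid acyltransferase gene, fell at day 60 by 0.22 ± 0.03 in the mesenteric, 0.24 ± 0.04 in the perirenal and 0.23 ± 0.05 in the perigonadal depot (limma, adjusted p = 6.23e-07 to 0.00035). Apoe rose in the perigonadal depot by 0.22 ± 0.03 (adjusted p = 3.57e-07, limma). Macrophages also express Apoe. In the depot labelled mesenteric 4 of 6 macrophage markers were lower at day 60, and their summed level had a median of 32.1 at day 0 and 30.6 at day 60. In the perigonadal depot 5 of 6 were tested at day 60, with 1 higher (Mrc1, 0.21 ± 0.07, limma adjusted p = 0.0236) and 0 lower, and the summed level had a median of 17.5 at day 0 and 18.7 at day 60. Their part in these changes was not tested.

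Among partners and processing factors, Mlx, whose product pairs with ChREBP, rose at day 60 by 0.24 ± 0.04 in liver (limma, adjusted p = 5.45e-07) and by 0.23 ± 0.05 in the depot labelled perirenal (adjusted p = 0.00126). Insig2, which encodes a retention factor of the SREBP complex, fell in liver by 0.32 ± 0.09 at day 60 (adjusted p = 0.00731, limma), and Rxrb fell by 0.13 ± 0.03 (adjusted p = 0.000505). Insig1, a relative of Insig2, fell by 0.13 ± 0.02 at day 3 in the mesenteric depot (adjusted p = 0.000275, limma) and had a change of 0.03 ± 0.03 there at day 60. Srebf2, the gene of the cholesterol-directed relative of SREBP-1, rose by 0.25 ± 0.05 at day 60 in the perigonadal depot (adjusted p = 9.1e-05, limma). Over all days 7 of 15 of these genes passed in liver (28.5% of all genes), 6 in the mesenteric (38.2%), 5 in the perirenal (24.9%), 7 in the perigonadal (36.1%) and 3 in the subcutaneous depot (5.79%).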

How the data were processed

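Per the labels, total RNA was biotin-labelled for 1-colour arrays, and what was done to make the values is, for the sources used here, not given. The authors deposited linear intensity values, 1 column per array, for 466 arrays of 80 mice and 32640 probe sets, with none at or below 0, so the background correction and normalization behind them are unknown. Of these, 80 liver arrays and 75 to 80 of each labelled depot were used, 0 columns were left unmapped, and hypothalamus arrays entered no comparison. The platform annotation named 1 gene for 25508 probe sets, several for 0 and none for 7132, and 4066 symbols were updated through RefSeq (GRCm38.p6). No 2 arrays of a tissue were identical (highest correlation between arrays 0.9987 to 0.9993). A gene with several probe sets was read by that with the highest mean in the tissue. Genes whose probe set had a mean above percentile 25 of all probe-set means of the tissue were tested on log2 intensity with limma 3.58.1 in R 4.3.3 (lmFit and eBayes with trend and robust), with day and letter as terms, two-sided, with Benjamini-Hochberg adjustment over all genes tested. The fits were checked on simulated data. The members and gene lists were chosen with earlier results of these data known.

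Differences between liver and a depot were fitted over both tissues with tissue by day and tissue by letter terms. Animals were shared between tissues by the ID in the labels, and deviations of the same animal in liver and a depot had a median correlation over genes of 0.0366 to 0.0581, so within-animal differences were an alternative. Relations between mice used two-sided permutation tests with 100000 resamples (scipy 1.17.1). The text names the 6 members in each tissue, up to 3 called genes with the smallest adjusted p over all days from each list and tissue, the 2 genes most correlated with a member, and marker genes that move with a result. The mice are labelled as biological replicates, and the number of arrays limits the precision.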

Additional observations from a re-analysis of the deposited data

Results flagged for a closer look

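Within groups of 4 to 10 mice, 4 of 96 groups held a mouse far from the others by Dixon's criterion, and chance marks about 1 in 20. Groups of 11 or 12 mice were not checked. They include all day 0 groups and, but for the depot labelled perigonadal, the day 42 groups. In 1 of them, Txnip in the depot labelled mesenteric at day 42, mouse N20 had 8.50, with the next of 11 mice at 11.6. The Txnip difference between liver and that depot was not fitted without N20. Srebf1 in the depot labelled perirenal at day 60 was 5.81 in mouse N62, with the next of the 6 mice at 6.52. Nr1h3 in liver at day 1 was 2.85 in mouse J15, with the next of 5 mice at 2.73. Nr1h3 in the depot labelled perirenal at day 14 was 2.43 in mouse N33, with the next of 10 mice at 2.84. Rgs16 in the same depot and day was 0.0976 in mouse J47, with the next at 0.0881.

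The change from day 0 to day 42 differed between liver and a labelled depot by the test of the difference itself in 10 cases. For Rgs16 the liver change minus the depot change was -0.93 for the subcutaneous, -0.90 for the mesenteric, -0.96 for the perirenal and -0.95 for the perigonadal depot. Rgs16 readings in the depots lay below the array medians, so a fall there may not have been measurable, which was not tested. For Mlxipl it was -0.41, -0.36 and -0.35 for the mesenteric, perirenal and perigonadal depots, and for Txnip -0.26, -0.22 and -0.23 for the same 3.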

How the results depend on the processing

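Of 210 contrasts of a day with day 0 over the 6 members and 5 tissues, limma called 38, against 5 within J mice, 23 within N mice and 22 with the wider marker sums as covariates. J mice have no day 60 and N mice no day 1, so each has 180 of these contrasts, and 22 of the 38 calls lie on days that J mice have. Leaving out 1 mouse of day 42 or day 60 at a time gave 33 to 39. Over all days 20 of 30 were called, against 5 in J mice alone, and 19 to 20 with a mouse left out. Of the 60 contrasts of day 42 with day 3 and day 60 with day 42, 16 were called, against 4 within J mice, 10 within N mice, and 14 to 18 with a mouse left out, where J mice have the 30 of day 42 with day 3 alone. The shares of all genes called in these contrasts are given above by tissue and day. J or N mice alone make smaller groups, and the cause of the loss under marker sums was not tested. Among values called in the main fit or the alternative, the direction turned in 2 cases, both with the wider marker sums. Srebf1 in the perigonadal depot at day 42 turned to -0.077. Nr1h3 in the perirenal depot from day 3 to day 42 turned to 0.11 (limma, adjusted p = 0.0352). With within-animal differences as a replicate block, 9 of the 10 liver differences were called, and the block changed no other call. Among values of single members, 5376 kept direction and side of the threshold over the alternatives, 163 lost a call and 43 gained one, and quantile normalization, an offset of 0.1 and plain eBayes changed none. The mean of probe sets is not counted, since each member has 1 probe set and its values could not move.

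The arrays carry no depth. Pnpla3 in liver and Rgs16 in the depots were read near or below the median of their arrays. Restriction cannot be told apart from time without unrestricted mice, nor day 60 from the N mice apart from the additive letter term. Between the letters, limma called from 8 of 13633 genes (perirenal) to 4059 of 13475 (mesenteric). The depot labels were not all borne out by markers.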

Other observations

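Hypothalamus arrays of 74 of the same mice entered no comparison. Over all days, the lowest, median and highest intensities there were 1.67, 1.96 and 2.42 for Srebf1, 0.0780, 0.102 and 0.136 for Mlxipl, 0.130, 0.144 and 0.161 for Nr1h3, 0.214, 0.281 and 0.318 for Pnpla3, 0.398, 0.555 and 0.805 for Rgs16, and 0.895, 1.14 and 1.77 for Txnip.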
